A study of Mus musculus with 4 samples.

Results

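The H2 genes are the genes of the mouse major histocompatibility complex (MHC), and their messenger RNA was followed in the cortex of embryonic day 15 (E15) mice with and without human SERPINA3 in their neural cells. Members were all genes of the deposited count table with a symbol starting with H2- and a position on chromosome 17, which gave 27 of 26433 genes and 27 of the 1094 genes on that chromosome. They lie between positions 33974831 and 37274484 of chromosome 17 in the mouse genome build GRCm38, an interval of 3.30 Mb that also holds 143 other genes of the table. GENCODE M21 lists 45 genes with such a symbol on chromosome 17, and the 18 that were not members were not analysed here. By annotation, 20 members are protein coding and 7 are pseudogenes, and the members were sorted into 18 class I genes, 7 class II genes and 2 further pseudogenes, H2-K2 and H2-Pb.

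The study asked how SERPINA3, a secreted serine protease inhibitor, acts on the growth of the cortex, and bulk RNA sequencing compared cKI f/+ mice with WT mice. By the paper, SERPINA3 protein lay mainly in the nucleus of cultured human neural progenitors. The authors propose a role for it as transcription factor or cofactor. In cKI f/+ mice a human SERPINA3 gene under the CAG promoter sits in the Rosa26 locus behind a floxed stop cassette, which Nestin-Cre removes in neural progenitors and therefore in their progeny. The sample labels call these mice Serpina3/+;Nestin-Cre and the controls Wildtype, name the strain C57BL/6 for both, and describe total RNA from the cerebral cortex at E15. The study describes the controls as WT littermates, and by its methods the founders had been bred with B6D2F2 mice before the cross to Nestin-Cre. B6D2F2 mice descend from C57BL/6 and DBA/2, strains that carry different H2 haplotypes, and the haplotype of these libraries was not read here. There were 2 cKI f/+ and 2 WT libraries, called cKI 2, cKI 3, WT 1 and WT 3 after the columns of the table, with 17423512 to 18119444 reads counted on genes. The labels mention triplicates, and 2 libraries per group were analysed here. They do not say whether each library came from 1 embryo, so the p-values measure the spread between these libraries, which may be partly technical.

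Class I molecules consist of a heavy chain, encoded in the H2 region, and the light chain beta-2 microglobulin, encoded elsewhere. Classical (class Ia) heavy chains present peptides made by the proteasome to CD8 T cells, while the many nonclassical (class Ib) heavy chains of the Q, T and M regions have narrower roles, several of them as ligands of natural killer or gamma-delta T cells. Class II molecules present peptides from endosomes to CD4 T cells and are largely restricted to specialised antigen-presenting cells. In the brain, class I molecules are also made by neurons, where they have been linked to synapse pruning and plasticity, and both classes rise in many cell types under interferon.

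Promoters are shown for 2 class Ia genes with the same arrangement of short motifs and for 2 class Ib genes that lack most of it. A promoter window (250 bases before to 50 bases after an annotated gene start, RefSeq, GRCm38.p6) was found for 18 of the 27 members, and for 8 of the 9 members with enough reads for a test. Capitals mark every match, on either strand, to an interferon response element-like motif (GTTTCNNTT), an NF-kB-like motif (GGGNNTTCC), a CCAAT box (CCAAT, or ATTGG on the other strand) or the core of a cyclic AMP response element (TGACG), and no matches overlap in these 4 windows. The first motif was written after the H2-K1 sequence had been seen.
H2-K1, chr17:34000284-34000583, minus strand: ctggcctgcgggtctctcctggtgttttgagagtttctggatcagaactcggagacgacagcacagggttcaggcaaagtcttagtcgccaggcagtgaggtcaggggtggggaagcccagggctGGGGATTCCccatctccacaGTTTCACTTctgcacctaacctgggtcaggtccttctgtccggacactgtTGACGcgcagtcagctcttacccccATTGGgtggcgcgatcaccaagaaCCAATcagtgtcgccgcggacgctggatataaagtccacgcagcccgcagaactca
H2-D1, chr17:35262844-35263143, plus strand: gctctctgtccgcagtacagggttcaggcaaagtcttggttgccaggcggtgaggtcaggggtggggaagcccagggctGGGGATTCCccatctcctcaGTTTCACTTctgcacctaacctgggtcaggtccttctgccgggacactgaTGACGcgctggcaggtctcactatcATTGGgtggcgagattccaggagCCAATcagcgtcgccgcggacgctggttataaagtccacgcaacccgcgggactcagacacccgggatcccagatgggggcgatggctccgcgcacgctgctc
H2-T23, chr17:36032652-36032951, minus strand: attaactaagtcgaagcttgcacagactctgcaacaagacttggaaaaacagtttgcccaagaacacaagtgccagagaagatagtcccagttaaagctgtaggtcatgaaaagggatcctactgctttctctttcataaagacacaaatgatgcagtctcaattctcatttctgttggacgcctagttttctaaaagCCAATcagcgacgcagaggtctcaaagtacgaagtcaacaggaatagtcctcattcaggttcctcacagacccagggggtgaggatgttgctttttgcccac
H2-M5, chr17:36989484-36989783, minus strand: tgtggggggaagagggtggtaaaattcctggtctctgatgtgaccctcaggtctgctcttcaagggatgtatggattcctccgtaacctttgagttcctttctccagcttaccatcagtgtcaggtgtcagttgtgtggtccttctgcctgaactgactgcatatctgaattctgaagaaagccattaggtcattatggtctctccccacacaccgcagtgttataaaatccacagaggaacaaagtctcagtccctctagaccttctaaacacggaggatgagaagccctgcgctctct

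H2-K1 and H2-D1 held all 4 motifs in the same order, with 20 bases from the start of the NF-kB-like match to the start of the interferon response element-like match in both. H2-T23 held a single CCAAT box, and the H2-M5 window held none of the 4. Among all 32851 windows of the table, 0.0548% (18 windows) held all 4 motifs, and 5 of those 18 belonged to members, namely both windows of H2-K1 and those of H2-D1, H2-Q4 and H2-Q7. The interferon response element-like motif was in 5.77% of all windows and in those of 8 of the 18 members, the NF-kB-like motif in 5.82% and in those of 6 members, and the core of the cyclic AMP response element in 20.8% and in those of 7 members. A CCAAT box was in 37.4% of all windows and in those of 16 of the 18 members. These matches describe letters in a window, and the heavy chain genes share ancestry, so their windows are not independent of each other.

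The H2 genes were expressed at low levels in all 4 libraries. All 27 members together took 760 reads in cKI 2, 815 in cKI 3, 842 in WT 1 and 1059 in WT 3, which left most members with few reads. Levels are given as CPM (reads per 1000000 reads of the library) after normalization for library size and composition (TMM), and on this scale the members summed to 43.1, 45.0, 47.7 and 60.8 CPM in the same order. Of the 27 members, 9 passed the default expression filter of edgeR and held 94.5% of the 3476 member reads. These 9 were the class Ia genes H2-K1 and H2-D1, the class Ib genes H2-Q4, H2-Q7, H2-T22, H2-T23, H2-T24 and H2-M5, and the class II gene H2-DMa, and all of them are protein coding.

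**Figure D1:**
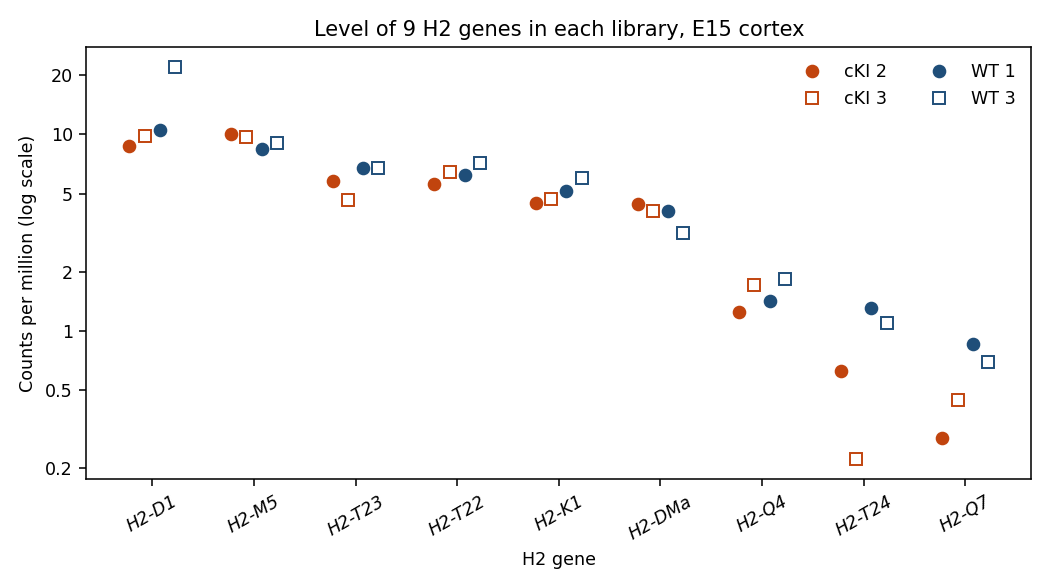
CPM (log axis) of the 9 H2 genes that passed the expression filter, with 1 point per library. H2-D1 in WT 3 stands at 22.1 CPM, above the 8.74 to 10.6 CPM of the other 3 libraries, and H2-T24 and H2-Q7 lie lower in both cKI f/+ libraries than in both WT libraries.

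None of the 9 tested members was called between cKI f/+ and WT cortex. With edgeR's quasi-likelihood test and Benjamini-Hochberg adjustment over all 15786 genes tested, 0 of 9 had an adjusted p under 0.05 (0.120% of all tested genes did), and their adjusted p-values ran from 0.969 to 0.994. At an unadjusted p under 0.05 there were 2, H2-D1 and H2-T24, both lower in cKI f/+ mice, where 4.60% of all tested genes passed. edgeR's likelihood ratio test called 0 of 9 with 3 at an unadjusted p under 0.05, and DESeq2 called 0 of 27 with 1. The log2 fold change of cKI f/+ over WT was below 0 for 7 of the 9, with a median of -0.29 against 0.00 over all genes tested. Of all genes tested, 48.8% had a value below 0. These counts cover only the members with enough reads and describe the list. H2-Q7, with 5 and 8 reads in cKI f/+ cortex against 15 and 12 in WT, passed the expression filter only through the WT libraries. H2-T24, with 4 reads in cKI 3, could not have passed through its cKI f/+ libraries alone. For H2-Q7, and in part for H2-T24, the filter thus favoured a value below 0, wherever they are counted. Both cKI f/+ libraries lay below both WT libraries for H2-K1, H2-D1, H2-Q7, H2-T23 and H2-T24, an arrangement that 16.9% of tested genes had. Both lay above for H2-M5 and H2-DMa, as for 17.3% of tested genes. With 2 libraries against 2, an exact permutation test of a single gene cannot go below 0.333, so these p-values draw on a spread estimated over many genes at once. RNA from a whole cortex does not tell fewer cells of a type from less RNA per cell.

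H2-D1 (ENSMUSG00000073411, chromosome 17 from 35262730 to 35267499) encodes a class Ia heavy chain and took 26.0% of all member reads. Its read counts were 154 in cKI 2, 179 in cKI 3, 187 in WT 1 and 385 in WT 3. On the CPM scale these were 8.74 and 9.88, then 10.6 and 22.1. The groups did not overlap, but WT 1 lay next to the cKI f/+ libraries and WT 3 far above them. The cKI f/+ mean was 9.31 ± 0.803 CPM (SD, n = 2) and the WT mean 16.3 ± 8.13 (SD, n = 2), so the means differed by less than the SD of the WT libraries. H2-D1 had a log2 fold change of -0.81 (95% interval -1.46 to -0.16, edgeR adjusted p = 0.969). Without WT 3 it was -0.19 (edgeR adjusted p = 0.853). Without WT 1 it was -1.25, and H2-D1 was then called (edgeR adjusted p = 0.000658), in a fit where the lone WT library is assumed to vary like the others. Between the WT libraries alone, the log2 ratio of WT 3 over WT 1 was 1.06. Of 3185 genes with a mean of 100 to 400 reads, 25 differed at least as much between the WT libraries, and the median size of that log2 ratio was 0.16.

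H2-K1 (ENSMUSG00000061232, chromosome 17 from 33996017 to 34000333), which encodes the other class Ia heavy chain and shares the promoter motifs shown above, did not have the WT 3 peak of H2-D1. Its 4 libraries held 79 and 85 reads in cKI f/+ cortex against 91 and 105 in WT, or 4.48 and 4.69 CPM against 5.16 and 6.03. Both cKI f/+ libraries were lower than both WT libraries, with a gap smaller than the distance between the WT libraries. Between the groups the log2 fold change was -0.29 (95% interval -0.74 to 0.17, edgeR adjusted p = 0.969), running from -0.39 without WT 1 to -0.17 without WT 3. In words of 31 bases, 73.1% of the exon sequence of H2-D1 and 77.2% of that of H2-K1 occur in no other annotated gene, and 13.8% of the H2-D1 words also occur in H2-K1. How the counting treated reads that match both genes is not given in the sources used here.

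**Figure D2:**
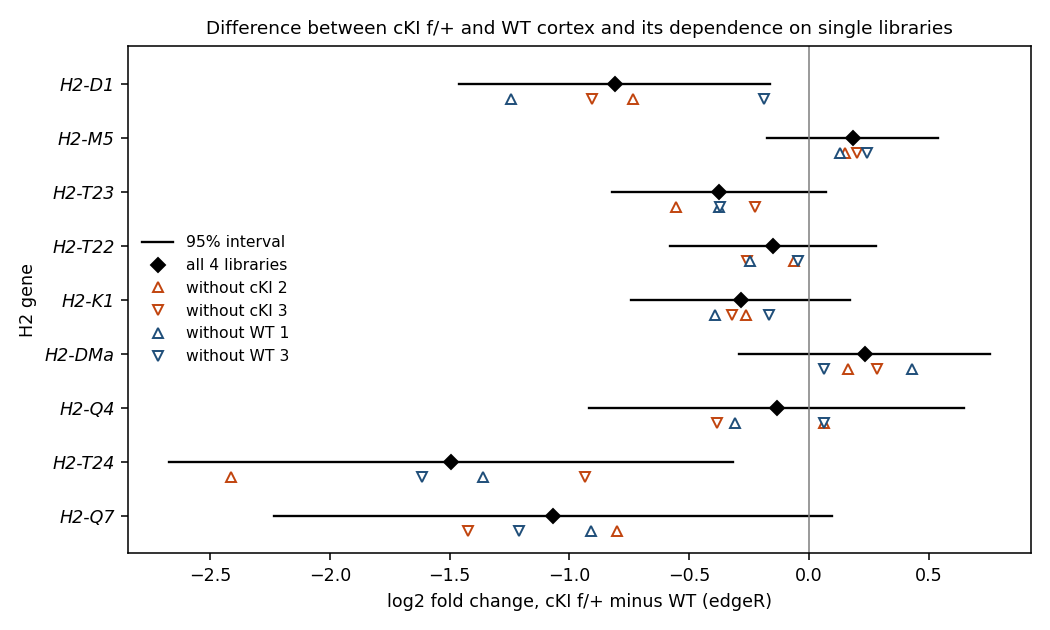
Log2 fold change of cKI f/+ over WT (edgeR) for the 9 tested H2 genes, with its 95% interval as a line and, as open triangles, the value after removing each library. The H2-D1 value runs from -1.25 without WT 1 to -0.19 without WT 3, and only the intervals of H2-D1 and H2-T24 lie wholly below 0.

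The Q region encodes class Ib heavy chains next to H2-D1, and 2 of its 6 members were tested. H2-Q7, which encodes the membrane-anchored antigen Qa-2, gave 5 and 8 reads in cKI f/+ cortex against 15 and 12 in WT. The groups did not overlap, at 0.284 and 0.441 CPM against 0.850 and 0.689 CPM. Its log2 fold change of -1.07 (95% interval -2.23 to 0.10, edgeR adjusted p = 0.969) was not called. As H2-Q7 passed the expression filter only through its WT libraries, a lower level in cKI f/+ cortex was favoured by the filter. H2-Q4 gave 22 and 31 reads in cKI f/+ cortex against 25 and 32 in WT, so that the groups overlapped. Its log2 fold change of -0.13 (95% interval -0.92 to 0.65) changed sign to 0.06 without cKI 2 and to 0.06 without WT 3. Only 47.0% of the H2-Q4 words and 60.8% of the H2-Q7 words are unique to the gene, so reads could be split with relatives, and 19.1% of the exon bases of H2-Q4 are overlapped by Gm11131 on the opposite strand.

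In the T region, 3 of 6 members were tested. H2-T23 encodes Qa-1, which presents leader peptides of other class I molecules to receptors of natural killer cells. It gave 102 and 84 reads in cKI f/+ cortex against 119 and 118 in WT, or 5.79 and 4.63 CPM against 6.75 and 6.77. Both cKI f/+ libraries were lower, and the WT libraries were nearly equal. H2-T23 had a log2 fold change of -0.38 (95% interval -0.82 to 0.07, edgeR adjusted p = 0.969), running from -0.55 without cKI 2 to -0.23 without cKI 3.

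H2-T24, another class Ib gene of the T region, had the log2 fold change of largest size among the 9, on few reads. It gave 11 and 4 reads in cKI f/+ cortex against 23 and 19 in WT, or 0.624 and 0.221 CPM against 1.30 and 1.09. The groups did not overlap, and the ratio of cKI 3 over cKI 2 was 0.354. This gave a log2 fold change of -1.49 (95% interval -2.67 to -0.32, edgeR adjusted p = 0.969), which ran from -2.41 without cKI 2 to -0.94 without cKI 3, and H2-T24 was called in none of these fits. Of its words, 93.4% are unique to the gene. With 4 reads in cKI 3, H2-T24 could not have passed the expression filter through its cKI f/+ libraries alone. A lower level in cKI f/+ cortex was thus partly favoured by the filter.

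H2-T22, whose product is a ligand of gamma-delta T cells, gave 99 and 117 reads in cKI f/+ cortex against 110 and 125 in WT. The groups overlapped, at 5.62 and 6.46 CPM against 6.24 and 7.17 CPM, and the log2 fold change was -0.15 (95% interval -0.58 to 0.28), running from -0.26 without cKI 3 to -0.05 without WT 3. It shares 47.2% of its words with its close relative H2-T10, which gave 5 and 6 reads in cKI f/+ cortex against 11 and 5 in WT and was not tested. In addition, 29.4% of the exon bases of H2-T22 are overlapped by A930015D03Rik on the opposite strand, and because the sources used here do not say whether counting used strand, reads of the pair cannot be told apart.

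H2-M5, a class Ib gene near the distal end of the interval, was the tested class I gene with a higher mean in cKI f/+ mice. It had 177 reads in each cKI f/+ library and 148 and 158 in WT mice, or 10.05 and 9.77 CPM against 8.39 and 9.07. Both cKI f/+ libraries lay above both WT libraries. The log2 fold change was 0.18 (95% interval -0.17 to 0.54, edgeR adjusted p = 0.976), and it stayed between 0.13 and 0.24 when libraries were left out one at a time. The gene is nearly free of shared sequence, with 97.8% of its words unique.

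Among the class II genes, H2-DMa was the only one tested. It encodes the alpha chain of DM, which exchanges the invariant chain fragment for peptides on class II molecules. It gave 78 and 74 reads in cKI f/+ cortex against 72 and 55 in WT, or 4.43 and 4.083 CPM against 4.082 and 3.16. The higher WT library and the lower cKI f/+ library were thus level, and with counts divided by the plain library total their order turned round (4.084 in cKI 3 and 4.087 in WT 1). The log2 fold change was 0.23 (95% interval -0.29 to 0.76, edgeR adjusted p = 0.985), and it was 0.06 without WT 3 and 0.43 without WT 1. Its gene overlaps Brd2 on the opposite strand over 10.4% of its exon bases.

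The remaining 18 members had at most 16 reads in a library and 191 reads in all, and 10 of them had at most 3 reads in every library. At these depths a count of 0 allows a level of up to 0.166 to 0.172 CPM, counting error only. The class II chains that carry peptide were all below the expression filter. H2-Ab1, which encodes the beta chain of I-A, gave 2 and 8 reads in cKI f/+ cortex against 5 and 7 in WT. H2-Aa, for the alpha chain of I-A, gave 1 and 3 reads in cKI f/+ cortex and 0 in both WT libraries. H2-Eb1, for the beta chain of I-E, gave 3 and 5 reads in cKI f/+ cortex, 2 in WT 1 and 16 in WT 3, so that WT 3 was the highest library here as for H2-D1. The partners of H2-DMa were close to 0, with 2 reads for H2-DMb2 in cKI 3 and 1 for H2-DMb1 in WT 3, and H2-Ob, for the beta chain of DO, gave 2 and 1 reads in cKI f/+ cortex against 1 and 0 in WT.

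Of the untested class I members, H2-M6-ps, a pseudogene, had the most reads, with 5 and 14 in cKI f/+ cortex against 8 and 9 in WT. H2-M3, which presents peptides with a formylated first residue, gave 1 and 9 reads in cKI f/+ cortex against 4 and 5 in WT. H2-M10.2, of a family known from the vomeronasal organ, had 4 and 1 reads against 4 and 2. In each of these the groups overlapped. In the Q region H2-Q6 had 2 and 2 reads against 6 and 0, H2-Q10, known as a secreted class I gene of liver, had 2 and 0 against 0 and 1, and H2-Q1 and H2-Q5 had 1 read each, in WT 1. The last members were the pseudogenes H2-Bl with 1 and 1 reads against 2 and 1, H2-T-ps with 0 and 1 against 2 and 1, H2-K2 with 3 and 1 against 4 and 2, and H2-Pb with 2 and 2 against 1 and 0. When every gene with at least 1 read was kept, edgeR tested all 27 members and called 0, with 2 at an unadjusted p under 0.05.

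Summed over the 18 class I members, the level was 38.0 and 39.7 CPM in cKI f/+ cortex against 42.9 and 56.1 CPM in WT. Both cKI f/+ libraries were lower, and most of the distance between the WT libraries came from H2-D1, without which the sums were 29.2 and 29.8 CPM against 32.3 and 34.0 CPM. The log2 ratio of the means was -0.35 with H2-D1 and -0.17 without it. By region, the 6 T region genes summed to 12.4 and 11.8 CPM against 15.1 and 15.4, the 6 Q region genes to 1.76 and 2.26 against 2.72 and 2.58, and the 4 M region genes to 10.6 and 11.1 against 9.30 and 9.99. The cKI f/+ sums lay below the WT sums for the T and Q regions and above them for the M region, where H2-M5 held most of the level, and these sums were not tested. The 7 class II genes summed to 4.88 and 5.13 CPM in cKI f/+ cortex against 4.54 and 4.53 CPM in WT, a log2 ratio of 0.14 that became -0.29 without H2-DMa. Over all class I members, tested or not, 14 of 18 had a lower mean in cKI f/+ mice, as did 3 of 7 class II members. Of the 14, 7 were tested members. The others had too few reads for a test, such as H2-Q1 and H2-Q5 with 1 read each, so this count says little about the class. Among all genes tested, 48.8% had a log2 fold change below 0.

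Compared per length, in CPM per kb of exon as the mean over the 4 libraries, H2-D1 ranked first among the members with 4.97 ± 2.41 (SD, n = 4), followed by H2-M5 with 3.46 ± 0.276 and H2-T23 with 2.07 ± 0.35. H2-T22 had 1.87 ± 0.188, H2-K1 1.73 ± 0.233 and H2-DMa 1.14 ± 0.158 CPM per kb. H2-Q4, H2-T24 and H2-Q7 closed the order with 0.598, 0.371 and 0.133 CPM per kb. The ranges of H2-D1 and H2-M5 overlapped, as did those of the neighbours H2-T23, H2-T22 and H2-K1 and those of H2-Q4, H2-T24 and H2-Q7 in turn, so the order within these groups is not resolved. H2-M5 lay above H2-T23, H2-K1 above H2-DMa and H2-DMa above H2-Q4 in every library. These levels divide by all exon bases, while the share of words unique to the gene ran from 32.6% for H2-T22 to 97.8% for H2-M5. The treatment of reads from shared sequence is not given in the sources used here. All of these orders therefore hold for the counts as given and were not corrected for shared sequence.

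**Figure D3:**
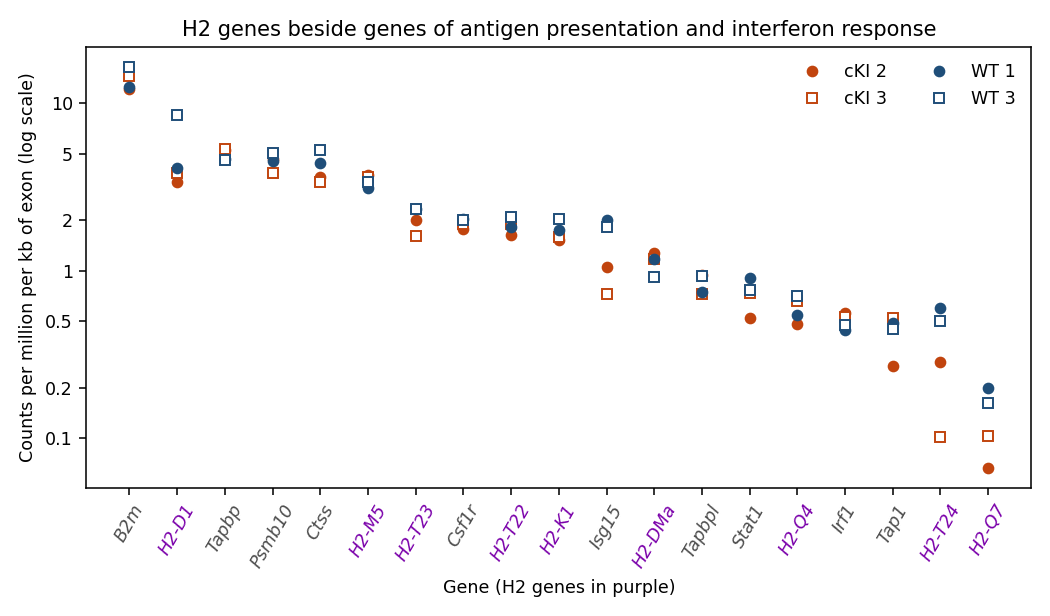
CPM per kb of exon (log axis) in each library for the 9 tested H2 genes and for 10 genes of antigen presentation, interferon response and microglia, ordered by the mean. B2m lies above every H2 gene in each library, and Isg15, H2-T24 and H2-Q7 are among the genes with both WT points above both cKI f/+ points.

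Among the partners of the class I heavy chains, no gene was called. B2m, which encodes beta-2 microglobulin, gave 184 and 228 reads in cKI f/+ cortex against 191 and 246 in WT, with a log2 fold change of -0.11 (95% interval -0.51 to 0.28). Its groups overlapped, and at 12.1 to 16.4 CPM per kb it was above every H2 gene. Of 11 class I assembly and peptide loading genes 10 were tested, and of 8 proteasome genes 6, with 0 called and 0 at an unadjusted p under 0.05 in both lists and median log2 fold changes of 0.04 and 0.05. The most abundant were the chaperones Calr (log2 fold change 0.02), Pdia3 (0.06), Canx (0.01) and Hspa5 (0.06) and the proteasome genes Psmb6 (0.17), Psmb7 (-0.02), Psme1 (-0.05) and Psmb5 (0.20). Tap1, a subunit of the peptide transporter, gave 26 and 52 reads in cKI f/+ cortex against 47 and 43 in WT. In the class II pathway, 8 of 11 genes were tested, 0 were called and 1 passed an unadjusted p under 0.05, the invariant chain protease gene Ctss with a log2 fold change of -0.46. Cd74, which encodes the invariant chain, had 0 to 2 reads in each library, as low as most class II genes of the H2 interval.

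The lists of class I regulators and of interferon signalling gave 0 called genes, and whether these factors act on the motifs shown above was not measured. Of 13 regulators of class I transcription 12 were tested, and of 13 interferon receptor and signalling genes 13, with 0 at an unadjusted p under 0.05 in either list. Nfya (log2 fold change 0.01), Nfyb (-0.14), Creb1 (-0.16) and Nfyc (0.12) were the most abundant regulators, and Nlrc5, the class I transactivator, had 4 to 7 reads in each library. Of 20 interferon-induced genes 8 were tested, with a median log2 fold change of -0.61 and 0 called. At an unadjusted p under 0.05 were 3, Isg15 (log2 fold change -1.11), Ifit2 (-0.62) and Ifi27 (-1.38), all lower in cKI f/+ mice with groups that did not overlap. Ifi27, with 6 and 4 reads in cKI f/+ cortex against 14 and 12 in WT, passed the expression filter only through its WT libraries. So did Oasl2, with 5 and 10 reads against 13 and 10, as the filter scales its 10 counts to library size. Isg15 (14 and 10 reads against 27 and 24) and Irgm1 (5 and 20 against 24 and 13) could not have passed through their cKI f/+ libraries alone. For these genes the filter favoured, fully or in part, a value below 0. This weighs on the median and on the count below 0. The log2 fold change was below 0 for 5 of the 8, and above 0 for Ifitm2 (0.31), Ifitm3 (0.04) and Bst2 (0.01). The 20 genes summed to 13.6 and 16.8 CPM in cKI f/+ cortex against 19.2 and 19.3 CPM in WT. Of 12 neuronal class I receptors and synapse partners, 5 were tested with 0 called and 0 at an unadjusted p under 0.05, and Pirb, a receptor for class I molecules, had 1 to 11 reads.

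Marker lists described the tissue behind these levels. The labelled tissue was present, with all 19 markers of cortical progenitors and neurons tested, 0 called and sums of 9264 to 9734 CPM. Microglia and macrophage markers (14 of 15 tested, none at 0, 1 at an unadjusted p under 0.05) summed to 52.4 to 53.3 CPM in cKI f/+ mice and 56.1 to 57.4 CPM in WT mice. Lymphocyte and dendritic cell markers (0 of 11 tested) summed to 0.510 to 0.717 CPM, with Cd3d and Cd8a at 0 in 3 of 4 libraries. Endothelial markers (0 of 11 at an unadjusted p under 0.05) summed to 178.9 to 199.5 CPM in cKI f/+ mice and 196.4 to 198.5 CPM in WT mice, and pericyte markers (1 of 7) to 67.9 to 69.4 CPM and 83.3 to 84.3 CPM. Meningeal fibroblast markers (5 of 7, all 5 higher in cKI f/+ mice) summed to 71.2 to 73.8 CPM in cKI f/+ mice and 48.8 to 58.0 CPM in WT mice. The other 2 tested, Foxc1 (log2 fold change -0.49) and Foxd1 (-0.21), had values below 0. Igf2 alone held 48.3 and 52.7 CPM in cKI f/+ mice and 37.6 and 45.6 CPM in WT mice. Blood markers (3 of 9, all 3 lower) summed to 368.7 to 495.9 CPM and 492.9 to 525.6 CPM. Of all tested genes, 4.60% had an unadjusted p under 0.05. Choroid plexus markers (3 of 5, higher) summed to 11.2 CPM in cKI 2, 72.1 in cKI 3, 2.66 in WT 1 and 5.51 in WT 3. Without cKI 3, the 9 members kept the sign of their log2 fold change. In that fit cKI 2 remained, with a choroid plexus sum above those of both WT libraries. None of these markers was called, and their part in the levels of the H2 genes was not tested. The 5 sex-linked genes were all called, with Xist high and genes of chromosome Y at 0 or 1 read in both cKI f/+ libraries and the reverse in both WT libraries, so for every H2 gene genotype and sex cannot be told apart. The human transgene was not analysed here.

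The other genes of the interval gave a comparison for position. Of the 143, 90 were tested, 0 were called with edgeR or DESeq2 and 3 had an unadjusted p under 0.05, namely Atf6b, Rnf5 and Col11a2 (named after their values were seen), all higher in cKI f/+ mice with log2 fold changes of 0.18, 0.23 and 0.30. Their median log2 fold change was 0.05, and it was below 0 for 25 of the 90, against 7 of the 9 members. Both cKI f/+ libraries lay below both WT libraries for 7 of the 90 and above them for 25, against 16.9% and 17.3% of all tested genes. Over all tested genes, 0.120% were called, 4.60% had an unadjusted p under 0.05 and 48.8% had a log2 fold change below 0. The difference between members and these neighbours was not tested. A single library above all others by more than 1.5-fold was rare. Among 12338 genes with a mean of at least 50 reads, WT 3 was such a library for 18, WT 1 for 19, cKI 2 for 15 and cKI 3 for 17, and within the interval H2-D1 in WT 3 was the only case.

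**Figure D4:**
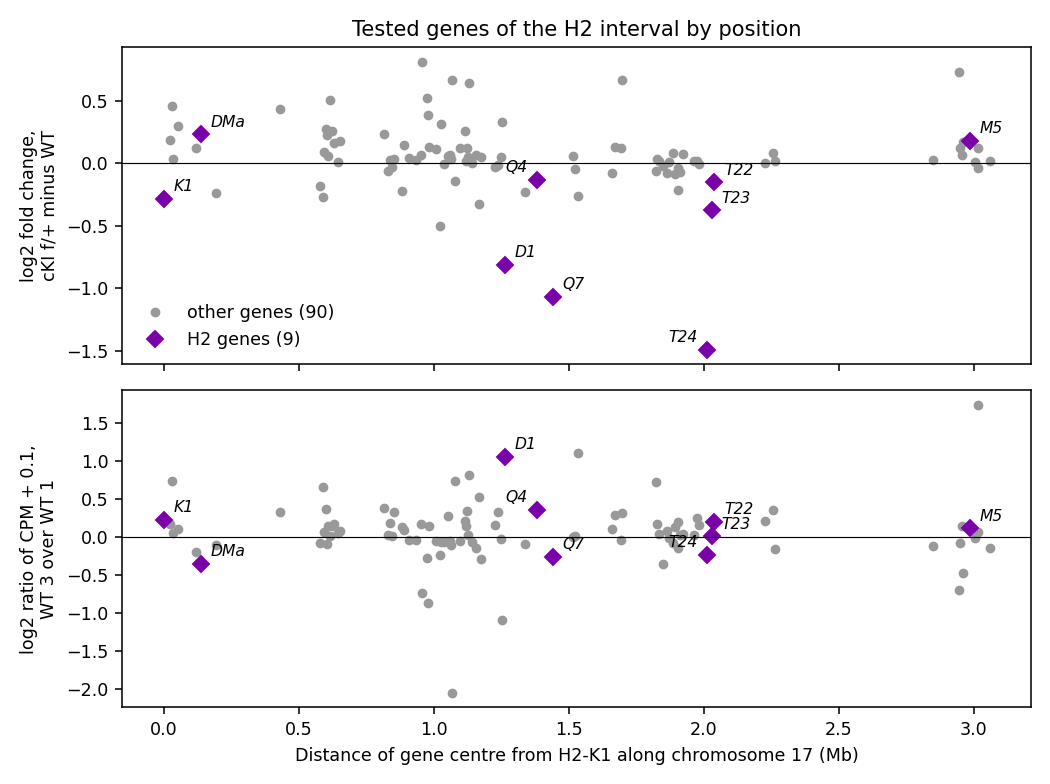
Tested genes of the H2 interval by the distance of the gene centre from H2-K1 (Mb), with the log2 fold change of cKI f/+ over WT above and the log2 ratio of WT 3 over WT 1 (CPM with 0.1 added) below. H2-D1, H2-T24 and H2-Q7 lie below the other genes in the upper panel. H2-Q7 passed the expression filter only through its WT libraries, and H2-T24 could not have passed through its cKI f/+ libraries alone. In the lower panel H2-D1 has a log2 ratio of 1.05. Some other genes differ more there, such as the weakly expressed Gm22388 (1.74) and Ly6g6c (-2.06), named after their values were seen.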

How the data were processed

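Total RNA of E15 cortex was sequenced by Illumina HiSeq, and the table deposited by the authors gives counts of reads on each gene in 4 libraries, not normalized. The submitters' processing notes list the build mm9, Bowtie2 2.2.3, TopHat2 2.0.12 and HTSeq 0.6.0, while the positions in the table are those of GRCm38. The identifiers of all 27 members are in GENCODE M21, 18 of them with the same start and end. The authors' own fold changes, ratios, p-values and normalized mean signal, also in the table, were not used. Columns could be assigned to a group but not to single labelled samples. From the counts, edgeR 4.0.16 in R 4.3.3 filtered genes with its default (10 counts), normalized by TMM and applied the quasi-likelihood test over all genes, adjusted by Benjamini-Hochberg and thresholded at 0.05 (biological coefficient of variation 8.72%). CPM values use the TMM library sizes. DESeq2 1.42.0, the likelihood ratio test, other normalizations and filters, removal of chromosomes X and Y and single libraries left out were alternatives. Exon lengths, overlaps and 31-base words came from GENCODE M21, promoter sequences from RefSeq (GRCm38.p6).

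The members and gene lists were chosen with earlier results of these data known. All tested members were named, as were the untested ones. Of the class I assembly, proteasome and class I regulator lists, the 4 genes of highest mean CPM were named. Other list genes, where named, were chosen for their role, level, direction or p after their values were seen.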

Additional observations from a re-analysis of the deposited data

How the results depend on the processing

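None of the 9 tested members was called in any fit on all 4 libraries. When single libraries were left out, the number called ran from 0 to 1, and the 1 was H2-D1 without WT 1. The log2 fold change of H2-Q4 changed sign without cKI 2 (0.063) and without WT 3 (0.064) within a range from -0.38 to 0.064, and the other 8 members kept their sign in every alternative. The number of called genes in the lists other than sex-linked genes was 0, but 3 with edgeR's likelihood ratio test and 2 to 5 with single libraries left out, and the cause was not tested. For the other interval genes it was 0 in every alternative run. The log2 ratio of the class I sums was -0.35 and ranged from -0.53 to -0.14 with single libraries left out. That of the class II sums was 0.14, ranged from 0.11 to 0.18, and was -0.29 without H2-DMa. No paired analysis was possible because the sample labels give the 2 groups no number in common and the columns of the table give them 1, the 3 of cKI 3 and WT 3. The 95% interval of 7 of the 9 tested members included both a decrease and an increase.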

Other observations

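Rps18, a ribosomal protein gene that lies on chromosome 17 from 33951999 to 33956001, just before the first H2 gene, was looked at after its values were seen. Its read counts were 5079 in cKI 2, 5125 in cKI 3, 4757 in WT 1 and 8990 in WT 3. Its processed copy Rps18-ps3 on chromosome 8 was counted 290 times in cKI 2, 314 in cKI 3, 242 in WT 1 and 23 in WT 3. WT 3 was thus the library that stood apart for H2-D1, for H2-Eb1 (16 reads) and for this pair, a set gathered after the values were seen. Other members had another library highest, such as H2-M6-ps with 14 reads in cKI 3. Of 12338 genes with a mean of at least 50 reads, WT 3 was more than 1.5-fold above all others for 18. The same held for 19 in WT 1, 15 in cKI 2 and 17 in cKI 3. Whether the WT 3 values share a source was not tested.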
